A study of Homo sapiens with 30 samples.

Results

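The genes examined were 9 of the transforming growth factor beta (TGF-β) pathway, taken by name out of 20090 protein-coding genes with an annotated start site: the ligand genes TGFB1 and TGFB2, the receptor genes TGFBR1 and TGFBR2, the signal transducers SMAD2, SMAD3 and SMAD4, the inhibitor SMAD7 and the induced gene TGFBI. They were placed at their GENCODE positions on GRCh37, and the peak summits near them were read in 18 lists from chromatin immunoprecipitation followed by sequencing (ChIP-seq). The cells were MDA-MB-231, an established triple-negative breast cancer line with mesenchymal features. Antibodies to SAP30, SIN3A and SIN3B were used on the parental line only. Those to H3K4me3, H3K9Ac and RNA polymerase II (Pol II) were used on the parental line and on SAP30-KO1, in which SAP30 was knocked out by CRISPR/Cas9 and which is a mixture of single knockout clones. Each of these 9 groups held 2 libraries, and nothing in the labels says that they came from separate cultures, so the p-values below measure only the spread between these libraries.

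TGF-β ligands are secreted in latent form and, once released, bring the type II receptor TGFBR2 and the type I receptor TGFBR1 together. The activated receptor phosphorylates SMAD2 and SMAD3, which join SMAD4, enter the nucleus and bind short GC-rich or CAGAC elements, often beside other factors such as AP-1. SMAD7 is induced by the pathway and shuts the receptor down. In breast cancer cells the pathway is known for its part in invasion and in the mesenchymal state. SAP30 is a subunit of the SIN3 corepressor complex, which is built on SIN3A or SIN3B and carries histone deacetylases. H3K4me3 marks active promoters, and H3K9Ac marks active promoters and enhancers.

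A summit is the base at the top of a peak, and its score is the −log10 of the q-value that the peak caller gave it. The lists held 10861 to 54622 summits, the lowest score was 1.30, and 76.1% to 93.9% of a list's summits lay within 1000 bp of one in the other replicate. Since sequencing depth is unknown and the scores of different lists are not on 1 scale, a summit is described by its rank in its own list, from 0% for the highest score to 100% for the lowest, and a gene by its best-ranked summit within 1000 bp of any of its start sites. The Pol II lists differed in scale between the lines: the 2 parental lists had median scores of 14.0 and 15.5, and those of SAP30-KO1 had 7.21 and 5.80. Promoter peaks of Pol II, H3K4me3 and H3K9Ac were found in both parental libraries at all 5 mesenchymal genes checked (VIM, CD44, ZEB1, AXL and CAV1), and none of 5 luminal genes (ESR1, PGR, FOXA1, GATA3 and CDH1) had a Pol II or H3K9Ac peak, although 4 of the 5 had H3K4me3. SAP30 was not profiled in the knockout line, so the loss of the protein cannot be checked in these lists. At the SAP30 gene itself the best Pol II summit ranked 10.2% and 5.40% in parental cells and 3.75% and 23.9% in SAP30-KO1 cells, in replicates 1 and 2, so its promoter still carried Pol II in both.

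SAP30 was found at the promoter of all 9 genes in both parental libraries, while 61.2% of all protein-coding genes had such a peak. SIN3B was found in both libraries at 8 of the 9 (51.7% of all genes) and SIN3A at 6 (31.5% of all genes). The 9 genes were chosen as a pathway with known peaks in these lists, so these shares are a description. Among the genes with a peak in both libraries the median rank of SAP30 was 22.0% for the 9 genes and 17.1% for all 12294 such genes, so the 9 did not stand above the other bound promoters.

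**Figure D1:**
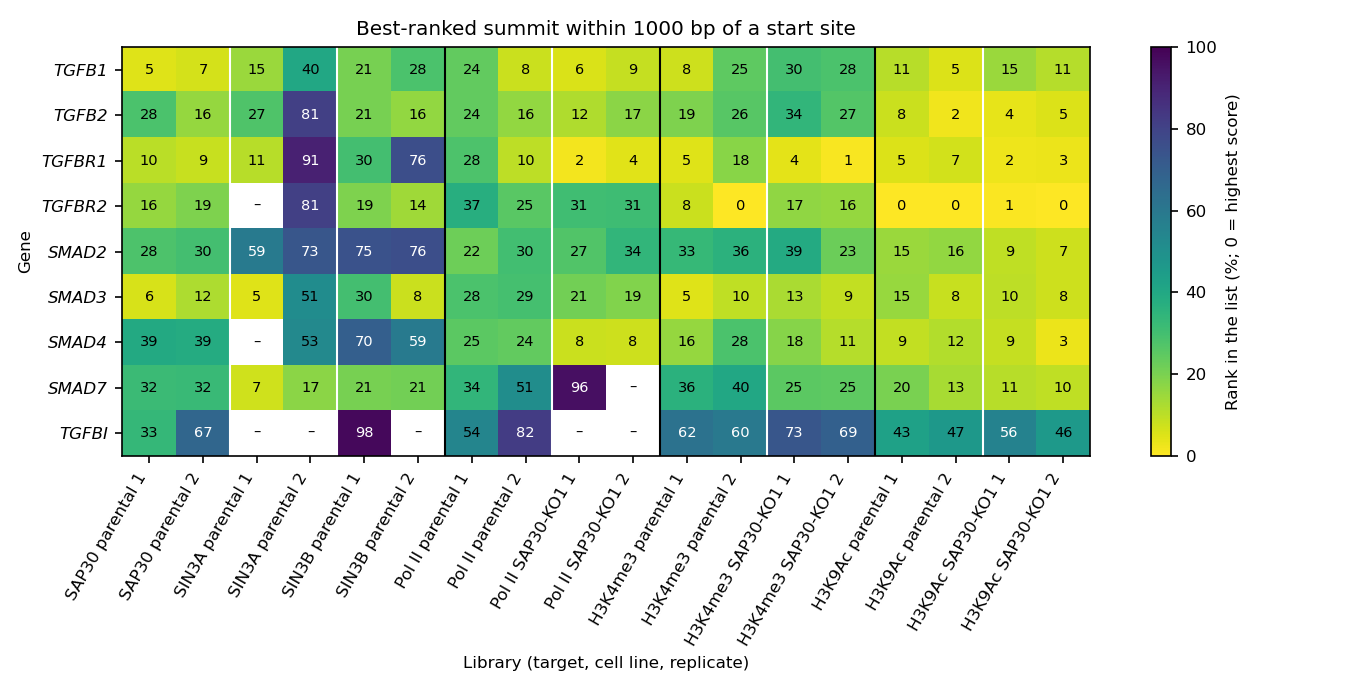
Rank of the best summit within 1000 bp of a start site (colour and number, in percent of the list, 0% being the highest score) for each gene (rows) in each of the 18 libraries (columns); a dash marks a library with no summit in the window. SAP30 ranks of TGFB1, TGFBR1 and SMAD3 lie between 4.74% and 12.1%, and the TGFBI row holds 5 of the 8 dashes.

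Of the ligand genes, TGFB1 had the strongest SAP30 promoter peak of the 9 genes, with ranks of 4.74% and 6.51%. Its summits lay 304 and 395 bp downstream of the second of its 2 start sites, inside the gene (chr19:41807492-41859827, minus strand). At this promoter SIN3A ranked 15.2% and 40.1% and SIN3B ranked 20.6% and 28.4%. The SIN3B summit of replicate 2 at 28.4% lay 155 bp downstream of the first start site. Beside the SAP30 summits SIN3B ranked 31.3% in that library. The start site of TMEM91 lies 247 bp from that of TGFB1, so signal at this promoter belongs to either gene. TGFB2 (chr1:218518678-218617961, plus strand) had SAP30 at 28.2% and 15.9%, and SIN3B, at 20.6% and 16.1%, ranked alike in its 2 libraries. SIN3A at TGFB2 differed much more between replicates, at 27.5% and 80.9%. The antisense gene TGFB2-AS1 starts 199 bp away.

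The receptor genes also had SAP30 in the better-ranked 20% of both lists. TGFBR1 (chr9:101866320-101916474, plus strand) ranked 10.4% and 8.54%, with the summit of replicate 1 in the first intron, 361 bp downstream of a start site, and that of replicate 2 only 41 bp downstream. SIN3A ranked 10.7% at TGFBR1 in replicate 1 and 90.9% in replicate 2, a spread that covers most of the list. TGFBR2 (chr3:30648093-30735634, plus strand), which has a single start site, ranked 15.7% and 19.4% for SAP30 and 19.3% and 14.3% for SIN3B. SIN3A reached TGFBR2 in only 1 of 2 libraries, at 81.0%.

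Among the SMAD genes SMAD3 stood first, with SAP30 at 5.93% and 12.1%, 34 and 98 bp upstream of its 5′ start site (gene at chr15:67356101-67487511, plus strand). The long noncoding RNA gene ENSG00000259347 starts 334 bp away on the other strand, and both SAP30 summits lay between the starts. Signal at this promoter thus belongs to either gene. SMAD2 (chr18:45335328-45457517, minus strand) ranked 28.0% and 29.8%. SMAD7 (chr18:46446223-46477335, minus strand) ranked 31.8% and 32.3%, and SMAD4 (chr18:48554898-48611415, plus strand) ranked 39.3% and 38.5%. For each of these 3 the replicates differed by less than 2 rank points, so the order SMAD2, SMAD7, SMAD4 was seen in both libraries. By percent rank SMAD7 was the only 1 of the 9 genes at which SIN3A, at 7.18% and 17.4%, ranked better than SAP30 in both libraries. These percents are of lists of unlike length, 11115 and 10861 SIN3A summits against 35001 and 35007 SAP30 summits. By place in the list SIN3A also stood ahead at SMAD2, at 6585 and 7967 against 9781 and 10439 for SAP30. SMAD4 had SIN3A in 1 of 2 libraries, at 52.8%.

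TGFBI (chr5:135364677-135399507, plus strand), which codes for an extracellular matrix protein, had the worst mean SAP30 rank of the 9. Its best SAP30 summits, at 33.5% and 66.8%, were not at the 5′ start site but 171 and 151 bp upstream of an internal start site, in an intron 29.7 kb into the gene. At the 5′ start site SAP30 ranked 63.6% and 82.5%. SIN3A had no summit at either start site, and SIN3B had 1 summit in 1 library, at 97.7%. When only the outer 5′ end of each annotated gene was used, SAP30 was found in both libraries at 6 of the 9 genes, SIN3A at 3 and SIN3B at 5. That end lies upstream of the first start site used here at TGFBR1 (101866320 and 101867319), SMAD3 (67356101 and 67357940) and SMAD4 (48554898 and 48555984). Peaks at their start sites can fall outside its window, so the lower counts do not show start sites without a peak.

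Sequence is given for SMAD3 and TGFBR1, whose SAP30 promoter peaks had the best mean ranks after TGFB1, together with the TGFBI promoter that is discussed with Pol II and the internal TGFBI site. All are GRCh37 sequence written 5′ to 3′ on the strand of the gene, with no transcribed untranslated sequence. Capitals mark the searched motifs: the SMAD-binding element CAGAC on either strand, the GC-rich element GGCGC on either strand, its relative GGCCG on either strand, and the AP-1 element TGANTCA, which reads the same on both strands. Matches may overlap.
SMAD3, chr15:67357790-67357939, immediately upstream of the 5′ start site and holding both SAP30 summits: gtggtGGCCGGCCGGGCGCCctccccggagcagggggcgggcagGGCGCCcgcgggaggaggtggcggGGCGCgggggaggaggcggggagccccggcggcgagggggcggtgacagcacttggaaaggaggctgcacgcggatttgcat
TGFBR1, chr9:101867718-101867867, first intron, around the SAP30 summit of replicate 1: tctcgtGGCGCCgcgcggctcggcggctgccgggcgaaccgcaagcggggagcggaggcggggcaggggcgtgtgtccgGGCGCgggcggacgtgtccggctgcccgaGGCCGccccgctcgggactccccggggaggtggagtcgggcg
TGFBI, chr5:135364527-135364676, immediately upstream of the 5′ start site: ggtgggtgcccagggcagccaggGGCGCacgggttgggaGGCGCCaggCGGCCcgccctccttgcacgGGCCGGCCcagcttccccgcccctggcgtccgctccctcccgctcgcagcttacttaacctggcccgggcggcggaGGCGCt
TGFBI, chr5:135394237-135394517, intron, around both internal SAP30 summits: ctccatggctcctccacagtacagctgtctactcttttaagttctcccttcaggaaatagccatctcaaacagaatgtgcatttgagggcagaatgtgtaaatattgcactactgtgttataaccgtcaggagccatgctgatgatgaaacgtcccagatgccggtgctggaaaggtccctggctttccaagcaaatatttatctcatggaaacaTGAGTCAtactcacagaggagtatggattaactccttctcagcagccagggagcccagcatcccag

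In windows of 301 bp centred on the best SAP30 promoter summit of replicate 1, GGCGC was present at 8 of the 9 genes and GGCCG at the same 8, all but TGFBI. These motifs are common in such windows: 84.5% and 85.2% of the 11116 windows of all protein-coding genes held them, and the median window was 70.1% GC. CAGAC was present at SMAD3 alone, against 42.6% of all windows. TGANTCA was present at TGFBR2 and TGFBI, against 4.0% of all windows. Of the windows around SAP30 summits more than 1000 bp from a start site, with a median of 51.5% GC, 40.4% held it. The TGFBI window (chr5:135394217-135394517), which holds the whole intronic sequence shown above, was 48.2% GC, while the other 8 were between 70.1% and 80.4%. These matches are letters in a window and are no evidence of a bound factor.

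SAP30 was not confined to promoters in these loci. Summits of both replicates within 1000 bp of each other were joined into regions, and the 9 genes with 50 kb on each side held 51 SAP30 regions, 21 at a start site of any gene and 30 elsewhere. SMAD3 held 18 of the 51 and TGFB1 held 10, while SMAD2 and SMAD4 held only the region at their own promoter. In the SMAD3 gene body, which is 131.4 kb long, 16 SAP30 regions were found, and only 11 of the 20090 genes, SMAD3 included, had as many or more. Per length this was 1.22 regions per 10 kb in SMAD3, 1.15 in TGFB1 and 1.15 in TGFBI, densities that 0.453%, 0.621% and 0.611% of the 9495 genes of 30 kb or more reached. By contrast TGFB2, TGFBR1, SMAD2, SMAD4 and SMAD7 had 1 SAP30 region each in the gene body.

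**Figure D2:**
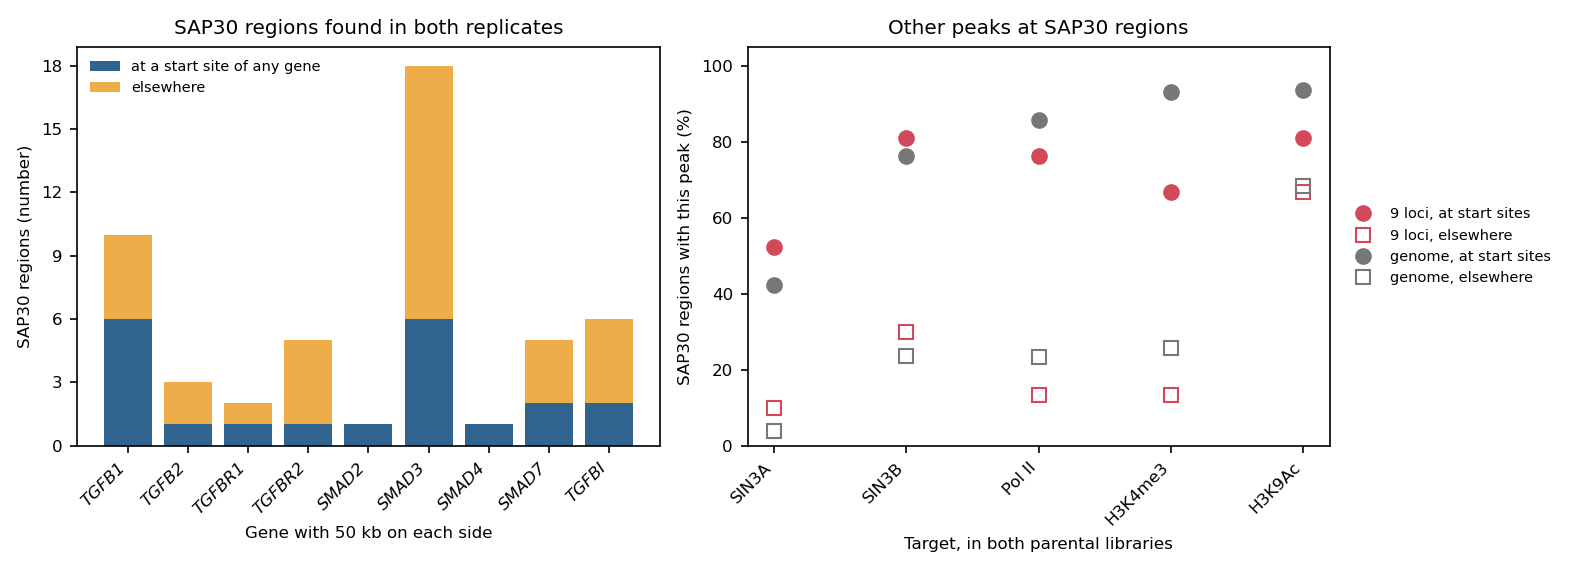
Left, number of SAP30 regions found in both replicates in each gene with 50 kb on each side, split into regions at a start site of any gene (blue) and elsewhere (yellow); SMAD3 has 18 and TGFB1 has 10. Right, percent of SAP30 regions that also held a region of each other target in both parental libraries, in the 9 loci (red) and the genome (grey), at start sites (filled circles) and elsewhere (open squares); H3K9Ac is the most frequent partner elsewhere, at 66.7% in the loci and 68.5% in the genome.

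Away from start sites the SAP30 regions of the 9 loci mostly lay with H3K9Ac and rarely with the other targets. Of these 30 regions 20 held H3K9Ac in both parental libraries (66.7%, against 68.5% in the genome), 9 held SIN3B (30.0% and 23.6%), 4 held Pol II (13.3% and 23.4%), 4 held H3K4me3 (13.3% and 25.8%) and 3 held SIN3A (10.0% and 3.88%). At start sites 17 of 21 regions held SIN3B (81.0%, against 76.3% in the genome) and 11 held SIN3A (52.4% and 42.4%), while Pol II (76.2% and 85.7%), H3K4me3 (66.7% and 93.2%) and H3K9Ac (81.0% and 93.7%) were below the genome. These shares count regions and not promoter peaks. The SAP30 regions at the start sites of TGFB2 and SMAD7 counted as without parental H3K4me3, and that of TGFB1 as without parental Pol II. Those promoters had such peaks in both parental libraries, within 1000 bp of a start site. Of the 21 regions 6 lay in the SMAD3 locus, and 3 of these held H3K4me3. No test was made of these shares, because regions of 1 library are not replicates.

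The best-ranked SAP30 regions of all 9 loci outside promoters belonged to SMAD3 and TGFB1, and both ranked above the promoters of 8 or more of the 9 genes in each library. In the SMAD3 locus a SAP30 region 15.7 kb upstream of the 5′ start site had summits at 3.43% and 1.37% of the lists, better than the 5.93% and 12.1% of the SMAD3 promoter. It lay in the span of the long noncoding RNA gene ENSG00000259347 (chr15:67276441-67357606, minus strand) and held SIN3A and H3K9Ac in both parental libraries, without SIN3B, Pol II or H3K4me3. H3K9Ac was still there in both SAP30-KO1 libraries. In TGFB1 an intronic region had summits 25.2 and 25.1 kb downstream of the nearest TGFB1 start site, at 5.20% and 2.98%, and held SIN3A, SIN3B, H3K4me3, H3K9Ac and, in parental cells, Pol II, but no Pol II region in both SAP30-KO1 libraries. Sequence around the summits of these sites is shown with motifs marked as above.
SMAD3 locus, chr15:67342144-67342293, plus strand: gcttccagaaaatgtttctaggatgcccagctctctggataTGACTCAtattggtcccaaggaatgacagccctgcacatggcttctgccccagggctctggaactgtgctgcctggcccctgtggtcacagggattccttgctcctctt
TGFB1, chr19:41833736-41833885, intron, minus strand: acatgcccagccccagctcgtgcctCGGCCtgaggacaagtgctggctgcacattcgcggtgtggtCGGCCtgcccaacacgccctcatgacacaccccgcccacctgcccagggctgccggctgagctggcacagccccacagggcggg
The SMAD3 site held 1 TGANTCA match, which was present in 40.4% of the 19698 windows of 301 bp around SAP30 summits more than 1000 bp from a start site. The TGFB1 site held 2 GGCCG matches and no TGANTCA.

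The knockout comparison asks whether Pol II and the histone marks at these promoters differ without SAP30. No promoter of the 9 genes passed the test for any of the 3 targets, but for Pol II only 7 could be tested. SMAD7 and TGFBI lacked a Pol II peak in at least 1 SAP30-KO1 library and were left out. The test was limma on the ranks of all protein-coding genes with a peak in all 4 libraries of a target, with Benjamini-Hochberg adjustment over all of them. For Pol II it called 0 of 10702 genes, or 0%, while 6.82% had an unadjusted p under 0.05. The shares were 0.766% called and 8.93% unadjusted of 12527 genes with H3K4me3, and 0.0083% called and 7.39% unadjusted of 12044 with H3K9Ac. Of the 9 genes SMAD4 and TGFBR1 had an unadjusted p under 0.05 with Pol II, SMAD7 and TGFBI with H3K4me3, and none with H3K9Ac. With 2 libraries against 2, a single-gene permutation test cannot go below 0.33, and the missing calls do not show that the promoters were alike in the lines. The ranks are therefore given as measured, in the order parental replicate 1, parental replicate 2, SAP30-KO1 replicate 1, SAP30-KO1 replicate 2.

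**Figure D3:**
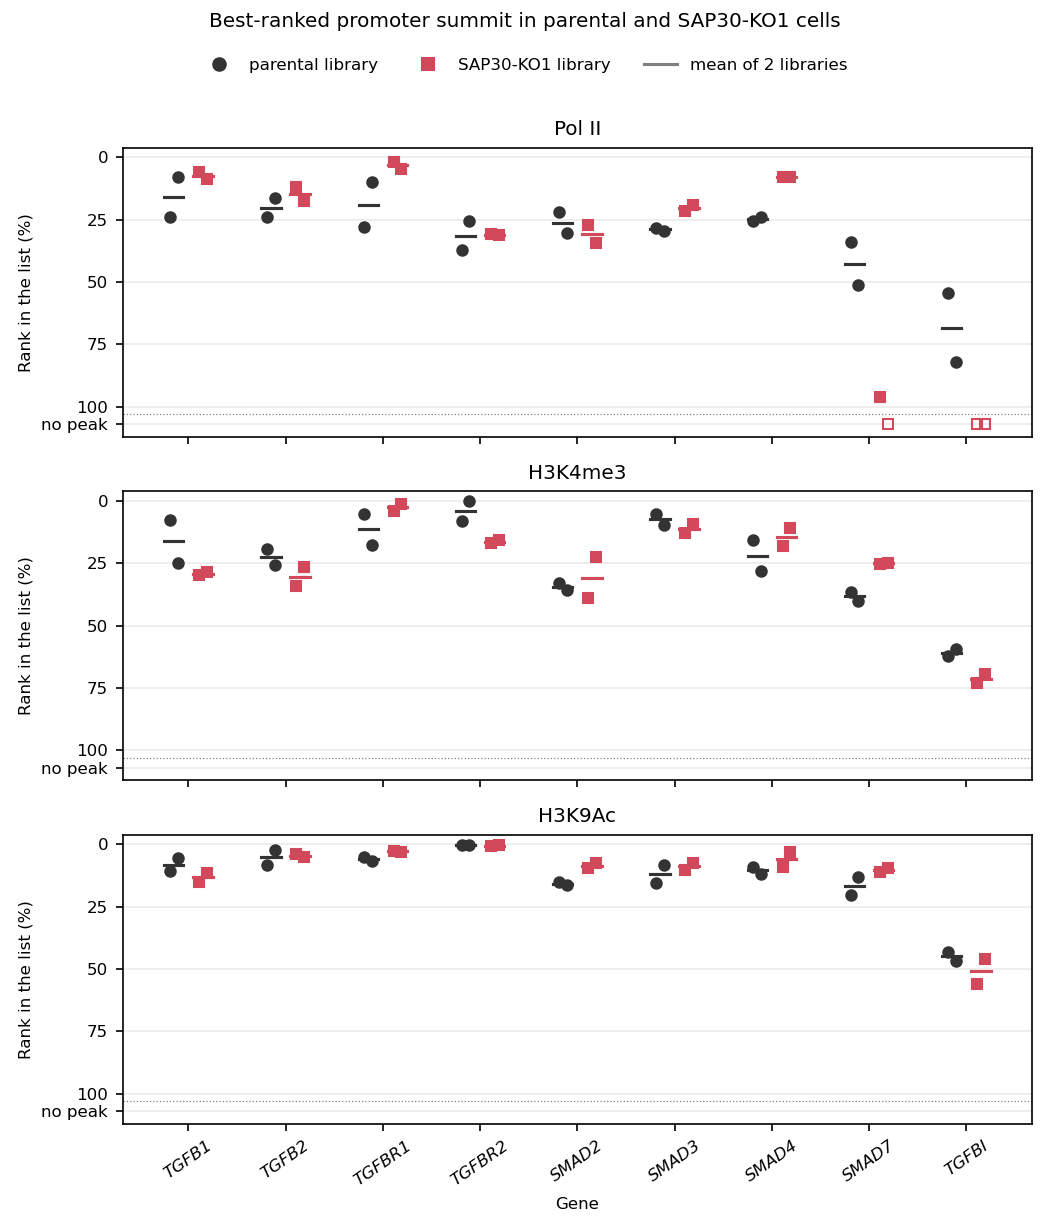
Rank of the best promoter summit in the 2 parental (black circles) and 2 SAP30-KO1 (red squares) libraries of Pol II, H3K4me3 and H3K9Ac for each gene, with 0% at the top and lines at the mean of 2 libraries; open symbols on the line marked no peak are libraries without a summit in the window. Pol II squares lie above both circles at TGFBR1, SMAD3 and SMAD4, and TGFBI has no square above the no-peak line for Pol II.

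Pol II was found at all 9 promoters in both parental libraries. Of the 7 with a peak in all 4 libraries, 3 ranked better in both SAP30-KO1 libraries than in either parental one, namely TGFBR1, SMAD3 and SMAD4, and none ranked worse in both. Among all genes 15.4% were better and 24.2% worse by that rule. At SMAD4, the partner shared by all receptor-activated SMADs, the ranks were 25.4%, 24.1%, 7.96% and 7.63%. The replicates were close in each line and the groups did not overlap. The scores of these summits went the other way, at 33.0 and 46.6 in parental cells and 29.3 and 21.7 in SAP30-KO1, beside the lower scores of the SAP30-KO1 lists as a whole. A long noncoding RNA gene, ENSG00000289868, starts 163 bp from SMAD4. The difference was −16.9 ± 5.84 rank points (SE, n = 2 and 2, adjusted p = 0.686 by limma), a negative value being a better rank in SAP30-KO1. At TGFBR1, the type I receptor, the ranks were 27.8%, 9.99%, 1.77% and 4.45%. Both knockout values were better than both parental ones, although the parental libraries were far apart. The scores of these TGFBR1 summits overlapped, at 30.9 and 76.3 in parental cells and 54.2 and 27.1 in SAP30-KO1. The difference was −15.8 ± 5.91 rank points (adjusted p = 0.686 by limma), and −6.87 without parental replicate 1. At SMAD3 the ranks were 28.4%, 29.4%, 21.4% and 18.9% (difference −8.77 ± 8.56, adjusted p = 0.795 by limma), with scores of 30.2 and 39.0 against 17.6 and 14.0.

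The other Pol II promoters overlapped between the lines. TGFB1 ranked 24.0%, 8.01%, 5.79% and 8.77%, and TGFB2 ranked 24.0%, 16.3%, 12% and 17.3%. TGFBR2 ranked 37.2%, 25.5%, 30.7% and 31.1%, with means that differed by 0.402 points. SMAD2 ranked 22.0%, 30.3%, 27.1% and 34.2%. The median difference was −8.74 rank points over the 7 genes and 1.48 over all genes tested. With an absent peak counted as 100% the median was −5.50 over the 9 genes and 2.39 over all. Without parental replicate 1, which had the worse ranks at TGFB1 and TGFBR1, the median of the 7 was −1.61.

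SMAD7 showed how much a promoter window can decide. Within 1000 bp of its start sites Pol II ranked 34.0% and 51.1% in parental cells, 95.9% in 1 SAP30-KO1 library, and had no summit in the other. The parental summits lay 947 and 973 bp upstream of the 5′ start site. The SAP30-KO1 summits of the same peak lay 1012 and 1020 bp upstream, just outside the window, and ranked 13.1% and 13.9%, better than both parental libraries. With a window of 3000 bp the difference was −29.0 ± 9.81 rank points (adjusted p = 0.672 by limma), while counting an absent peak as 100% gave 55.4 ± 10.9 in the opposite direction. So the edge of the window set the direction at SMAD7. The scores of that peak overlapped, at 25.4 and 14.6 in parental cells and 23.4 and 16.6 in SAP30-KO1 cells, while the medians of the lists were lower in SAP30-KO1 as given above.
SMAD7, chr18:46478242-46478391, minus strand, holding all 4 Pol II summits and a SAP30 summit, motifs in capitals as above: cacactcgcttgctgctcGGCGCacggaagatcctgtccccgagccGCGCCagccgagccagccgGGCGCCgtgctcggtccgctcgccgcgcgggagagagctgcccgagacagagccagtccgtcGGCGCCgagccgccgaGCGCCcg

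**Figure D4:**
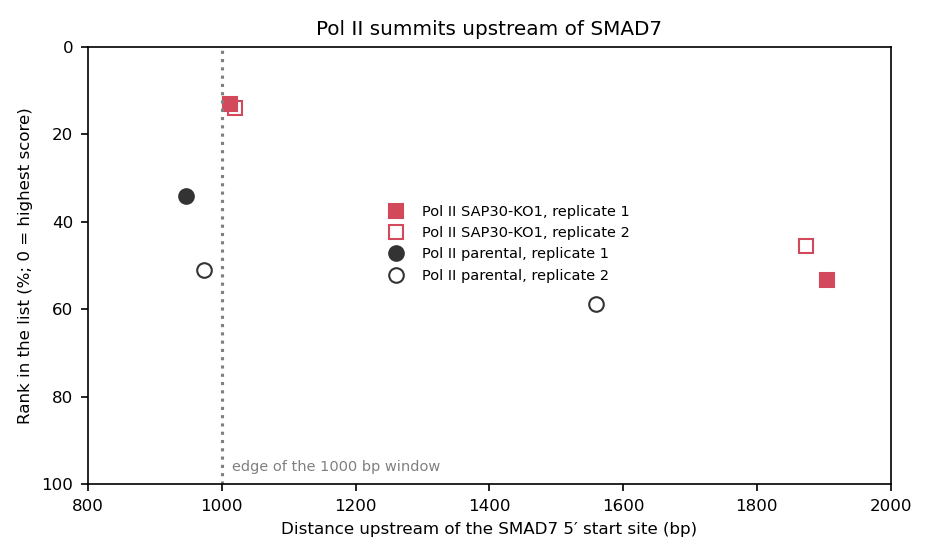
Pol II summits more than 800 bp upstream of the SMAD7 5′ start site, by distance (bp) and rank (percent of the list, 0% at the top), in parental (black circles) and SAP30-KO1 (red squares) libraries, filled for replicate 1 and open for replicate 2. The parental summits at 947 and 973 bp fall inside the window of 1000 bp (dotted line), and the SAP30-KO1 summits at 1012 and 1020 bp fall outside it at better ranks.

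TGFBI was the only 1 of the 9 genes that had a Pol II promoter peak in both parental libraries and none in SAP30-KO1. The parental summits lay 67 and 26 bp downstream of the 5′ start site, next to the promoter sequence shown above, and ranked 54.4% and 82.0%. In SAP30-KO1 the nearest Pol II summit was 51757 bp away in replicate 1 and 51695 bp away in replicate 2. Such a loss was seen at 2.33% of the 11591 genes with a parental Pol II peak. It was far more frequent among weak peaks: 22.6% of the 999 promoters with both parental ranks past 50% lost theirs, and they made up 226 of the 270 losses. TGFBI was the only 1 of the 9 genes in that class. Its parental scores were 11.6 and 4.66, under the median of their lists, and the scores of the SAP30-KO1 lists were lower as a whole, so a loss of Pol II at TGFBI cannot be told apart here from a weaker enrichment of the SAP30-KO1 libraries. Within 5 Mb of TGFBI 1 of 77 other promoters lost its peak. No gene of the 9 gained a Pol II promoter peak, which happened at 0.25% of genes.

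H3K4me3 was present at all 9 promoters in all 4 libraries. In SAP30-KO1 4 of the 9 ranked worse in both libraries than in either parental one (TGFB1, TGFB2, TGFBR2 and TGFBI) and 2 ranked better (TGFBR1 and SMAD7). Among all genes 28.2% were worse and 11.5% better. The median difference was 3.77 rank points over the 9 genes and 2.09 over all genes tested. Leaving out parental replicate 1 or 2 gave 1.56 and 5.98 for the 9 and 1.83 and 3.06 for all genes, and leaving out SAP30-KO1 replicate 1 or 2 gave 1.99 and 5.55 for the 9 and 0.40 and 3.59 for all genes. TGFBI ranked 62.2%, 59.5%, 73.2% and 69.3%, so the H3K4me3 peak was kept at a worse rank (difference 10.4 ± 4.02, adjusted p = 0.390 by limma). At TGFBR2 the ranks were 8.14%, then the second-ranked of the 22393 summits of its list, then 16.8% and 15.8% (difference 12.2 ± 6.71, adjusted p = 0.600 by limma). TGFB1 ranked 7.57%, 24.9%, 29.8% and 28.4%, where the spread between the parental libraries was larger than the gap from parental replicate 2 to the knockout. TGFB2 ranked 19.2%, 25.8%, 34.2% and 26.7%, with the parental replicate 2 summit at the first of its start sites and the others at the second, up to 1250 bp away.

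On the better side for H3K4me3, SMAD7 ranked 36.3%, 40.1%, 25.3% and 24.8% (difference −13.2 ± 6.10, adjusted p = 0.521 by limma) and groups that did not overlap. These are not ranks of 1 peak: in each line 1 library had its best summit near the 5′ start site and the other near an internal one, up to 1328 bp apart. The SAP30-KO1 replicate 1 summit nearest to the parental one upstream lay 736 bp from it and ranked 58.5%. TGFBR1 ranked 5.05%, 17.6%, 4.16% and 1.06% (difference −8.72 ± 5.35, adjusted p = 0.651 by limma), and its gap between the groups was under 1 point at the nearest libraries. The difference was −2.45 without parental replicate 2 and −15.0 without parental replicate 1. The other 3 overlapped. SMAD2 ranked 32.8%, 35.8%, 38.8% and 22.6%, SMAD3 ranked 5.07%, 9.50%, 12.8% and 9.28%, and SMAD4 ranked 15.8%, 28.2%, 18% and 11.0%.

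H3K9Ac was present at all 9 promoters in all 4 libraries too, with a median rank in parental cells of 10.4% over the 9 genes and 12.2% over all genes with a peak. TGFBR2 ranked best: its H3K9Ac summit ranked 0.224%, 0.0615%, 0.747% and 0.369%, which placed it between 34 and 381 from the top of lists of 50807 to 54622 summits. In SAP30-KO1 2 of the 9 genes were worse in both libraries (TGFB1 and TGFBR2) and 4 were better (TGFBR1, SMAD2, SMAD4 and SMAD7), against 22.1% worse and 16.4% better among all genes. The median difference was −2.94 rank points for the 9 and 0.31 for all genes tested, but 0.50 for the 9 without parental replicate 1 and −0.59 with a window of 3000 bp. That median is the value of SMAD3, whose direction depended on the window as given below. At SMAD2 the ranks were 15.1%, 16.3%, 9.44% and 7.47% (difference −7.23 ± 3.60, adjusted p = 0.684 by limma). These are not ranks of 1 summit: the SAP30-KO1 summits lay up to 744 bp from the parental ones and nearest to another start site. At TGFBR1 the ranks were 5.13%, 6.73%, 2.44% and 2.94% (difference −3.24 ± 1.48, adjusted p = 0.673 by limma). SMAD7 ranked 20.2%, 13.1%, 10.9% and 9.54%, and SMAD4 ranked 9.13%, 11.7%, 8.91% and 3.10%. TGFB1 was worse, at 10.7%, 5.40%, 14.9% and 11.2%. The remaining 3 overlapped: TGFB2 at 8.10%, 2.09%, 3.88% and 5.12%, SMAD3 at 15.3%, 8.22%, 10.1% and 7.56%, and TGFBI, at its internal start site, at 42.9%, 46.6%, 55.8% and 45.9%. The 15.3% of SMAD3 came from an internal start site 32979 bp from the one behind the other 3 values, and its difference was −2.94 here, 1.92 with a window of 3000 bp and 3.91 with 500 bp. At SMAD7 the best H3K9Ac summits also lay at 2 start sites, up to 1439 bp apart. The SAP30-KO1 summits nearest to the best parental one lay 1084 and 33 bp away, in replicates 1 and 2, and ranked 27.0% and 9.54%.

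Read by gene within the window of 1000 bp, TGFBR1 was better in both SAP30-KO1 libraries for all 3 targets, as were 1.1% of the 10390 genes with all 3 peaks in every library. SMAD7 and TGFBR1 were better for both histone marks (4.15% of 11814 genes), but at SMAD7 these were ranks of summits at 2 start sites. The SAP30-KO1 replicate 1 summit nearest to its best parental one lay 736 bp away with H3K4me3 and 1084 bp away with H3K9Ac. These summits ranked 58.5% (36.3% in parental replicate 1) and 27.0% (13.1% in parental replicate 2). Both ranks were worse, but at these distances they may not be of the same peak. The SAP30-KO1 replicate 2 summits, 6 and 33 bp away, ranked 24.8% and 9.54%, both better. The upstream Pol II peak of SMAD7, outside that window in SAP30-KO1, ranked better in both SAP30-KO1 libraries. TGFB1 and TGFBR2 were worse for both histone marks (9.58% of genes), with Pol II ranks that overlapped. Other promoters nearby moved too. SMAD2 and SMAD7 are neighbours on chromosome 18, and the 26 other promoters within 5 Mb of each had a median H3K9Ac difference of −3.97 rank points. The same median was −2.80 around SMAD4 (32 promoters) and −0.82 around TGFBR1 (43 promoters). With the median of the neighbourhood subtracted from the ranks, the H3K9Ac difference was −4.45 at SMAD2, −1.84 at SMAD4, −3.18 at SMAD7 and −2.41 at TGFBR1, smaller by over 1.5 times at the 3 SMAD genes.

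Counted over whole loci, the summits of the 9 genes kept about the same share of each list. The 9 genes with 50 kb on each side held 0.169% and 0.152% of the summits of the parental Pol II lists and 0.189% and 0.154% of the SAP30-KO1 lists, a ratio of the means of 1.07 (exact two-sided permutation p = 0.667, n = 2 and 2, the smallest possible being 0.33). The ratio was 0.95 for H3K4me3 and 1.03 for H3K9Ac, each with the same p of 0.667 in that exact test. These ratios lie within the spread between libraries. In the TGFB2 gene body Pol II summits numbered 3 and 3 in parental cells and 6 and 7 in SAP30-KO1, and in TGFBR2 they numbered 1 and 1 against 2 and 2. In TGFBI they numbered 2 and 3 against 0 and 0, and in TGFB1 they numbered 6 and 5 against 4 and 3. SMAD2 had none in parental cells and 1 and 1 in SAP30-KO1. Thus 3 of the 9 genes had more Pol II summits in both SAP30-KO1 libraries and 2 had fewer, against 9.37% and 6.74% of the 12665 genes with such a summit. Counted as regions found in both replicates, however, TGFB2 had 3 in parental cells and 1 in SAP30-KO1, TGFBR2 had 1 in each, and SMAD2 had 0 and 1. The TGFB2 count depends on joining summits within 1000 bp. In SAP30-KO1 replicate 2, summits at chr1:218518771, 218519381, 218519546 and 218520423 formed a chain across its start sites. Parental replicate 1 had summits at 218518700 and 218520286 there, too far apart to join.

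By regions, 3 of the 21 Pol II regions that both parental libraries had in the 9 loci were absent from both SAP30-KO1 libraries (8.61% in the genome). The same held for 1 of 20 with H3K4me3 (6.22%) and 4 of 59 with H3K9Ac (5.18%). Gained regions numbered 0 of 15 with Pol II (0.889% in the genome), 0 of 20 with H3K4me3 (1.26%) and 2 of 62 with H3K9Ac (3.79%). Of the lost Pol II regions 1 was the TGFBI promoter. Another lay inside TGFB1 (chr19:41830934-41832408), at 74.3% and 64.3% of the parental lists, where H3K4me3 was lost as well (chr19:41831758-41832021). The third lay in the flank of TGFB1 (chr19:41873757-41873826), 3703 bp from a start site of B9D2, at 51.7% and 75.9%. So 2 of the 3 lost Pol II regions and the lost H3K4me3 region lay in the TGFB1 locus, some of them close to SAP30-KO1 summits. In replicates 1 and 2 the nearest SAP30-KO1 Pol II summits were 1102 and 14882 bp from the region inside TGFB1. They were 3802 and 3857 bp from the region in its flank. For H3K4me3 they were 1592 and 1335 bp away, not far past the 1000 bp within which summits were joined.

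The lost H3K9Ac regions were spread over 4 loci. In SMAD7 the region at chr18:46475077-46475243, 460 bp from its nearest start site, had ranked 31.2% and 40.8%, and the nearest SAP30-KO1 summits were 1474 and 1185 bp away. In TGFBR2 a region inside the gene (chr3:30722458-30724199) had ranked 40.5% and 43.2%, with no SAP30-KO1 summit closer than 6312 bp. Another lay just upstream of TGFB2 (chr1:218516906-218517682), at 73.0% and 54.7%, with SAP30-KO1 summits 1427 and 1354 bp away, not far past the joining distance. The last lay at a start site of TMEM91 in the flank of TGFB1 (chr19:41882502-41882512), at 70.8% and 60.8%, with SAP30-KO1 summits 8245 and 8304 bp away. The gained H3K9Ac regions were inside TGFB2 (chr1:218527092-218527106), at 69.3% and 81.1% of the SAP30-KO1 lists, and 49073 bp upstream of TGFBR1 (chr9:101817525-101818246), at 98.5% and 63.6%. The nearest parental summits were 3377 and 7994 bp from the first and 1749 and 1772 bp from the second. All of these regions lay past the first 30% of their lists.

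The rest of the pathway was read from a list of 69 other genes covering ligands, proteins that hold or release latent TGF-β, receptors, SMADs, regulators and targets. SAP30 was present in both parental libraries at 56 of the 69 promoters, SIN3B at 44 and SIN3A at 28. None passed the limma test in the knockout comparison, of 44 tested with Pol II, 56 with H3K4me3 and 52 with H3K9Ac. For Pol II 9 of 44 ranked worse in both SAP30-KO1 libraries and 12 better, for H3K4me3 16 of 56 worse and 5 better, and for H3K9Ac 13 of 52 worse and 7 better. These shares sit beside 24.2% and 15.4%, 28.2% and 11.5%, and 22.1% and 16.4% among all genes.

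Lost promoter peaks were more frequent than that background in the pathway list for Pol II, as a count and without a test: 5 of 54 genes with a parental peak, against 2.33% of all genes. The 5, named after their values were seen, were INHBA, which codes for an activin subunit, LTBP2, a latent TGF-β binding protein family member, ITGB8, the β chain of an integrin that activates latent TGF-β, ENG, the co-receptor endoglin, and TAGLN, an actin-binding protein of smooth muscle known to be induced by TGF-β. All 5 had parental Pol II ranks past 50% in both libraries, between 50.3% and 96.6%, as TGFBI did. Of the pathway genes in that class 5 of 11 lost the peak, against 22.6% of all such promoters. The nearest SAP30-KO1 Pol II summit was 7451 and 4179 bp away at LTBP2 and at least 15876 bp away at the other 4.

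ENG was the only pathway gene that lost all 3 peaks. Its H3K9Ac summit had ranked 26.0% and 24.7% in parental cells and its H3K4me3 summit 54.7% and 57.4%, and no SAP30-KO1 summit of either mark lay within 15 kb. Within 5 Mb of ENG 0 of 114 other promoters lost H3K9Ac, 1 of 113 lost H3K4me3 and 1 of 108 lost Pol II. TAGLN lost H3K4me3 as well as Pol II, and within 5 Mb of it 2 of 50 promoters lost Pol II. Among all genes a promoter peak was lost at 1.44% with H3K4me3 and 0.689% with H3K9Ac, and gained at 0.166% and 0.538%. No gene of the pathway list and none of the 9 gained one.

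The genes most like each of the 9 were found as those with the smallest mean absolute difference in promoter rank over all 18 libraries, an absent peak counting as 100%. TGFBR2 had the closest match, LZTS2, at a mean difference of 3.32 rank points, followed by NRP1 at 4.84. TGFB1 was most like DYRK3 (4.95) and CCDC88A (5.18), TGFB2 like NLRX1 (5.47) and POMGNT1 (5.58), and TGFBR1 like TRAF2 (6.37) and WDR47 (7.01). SMAD3 was most like CHMP1A and SPATA33 (both 5.12, neighbours that share a promoter), SMAD2 like RNF215 (7.13) and DEXI (7.22), SMAD4 like COL5A1 (6.97) and ITPK1 (7.30), and TGFBI like TLR3 (5.09) and B3GNT4 (6.09). SMAD7 had no close match, its nearest being DNAAF11 at 10.1 points and ENSG00000285043 at 10.1.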

How the data were processed

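Groups were set by antibody and cell line as the labels give them, with 2 ChIP-seq libraries in each of 9 groups. The 12 input and total histone H3 samples of the 30 were not analysed here. The deposited lists hold summits of 1 bp that the authors called in each library with MACS2 2.1.0 after Bowtie2 2.3.3.1, FastQC 0.11.2 and Picard on hg19, per the submitters' processing notes. The deposited score is the −log10 q-value. Its size depends on depth, which is unknown, so no interval is given and scores were ranked within a list. The calling options and the control of each list are not given in the sources used here.

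Start sites were those of basic transcripts in GENCODE release 44 lifted to GRCh37, and sequences were read from GRCh37. A promoter was 1000 bp on each side of any start site, a locus the gene with 50 kb on each side, and summits within 1000 bp formed 1 region. A lost region or promoter peak was in both parental and neither SAP30-KO1 library. Ranks were compared with limma 3.58.1 (eBayes with trend) in R 4.3.3 and called at an adjusted p under 0.05, and locus shares by an exact permutation test. Fits and merging were tested on simulated data and the motif search on a short made-up sequence. The simulated shifts in the fits were larger than any difference given here. They therefore do not show whether differences of the size seen could be found. Tables were made with Python 3.11.15 and pandas 2.3.3.

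The genes and lists were chosen with earlier results of these data known. All 9 genes are named, others as counts or as lost peaks, with the 2 most alike genes for each. Alternatives were other windows, extensions and flanks, normal scores, absent peaks as 100%, lists of equal length, the better-ranked 50% or best 10000 peaks, subtraction of the median within 5 Mb, the replicate block and each library left out.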

Additional observations from a re-analysis of the deposited data

How the results depend on the processing

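No promoter of the 9 genes was called in any of the 11 alternative fits of each target, the lowest adjusted p (limma) being 0.0689 for TGFBI with H3K4me3 when SAP30-KO1 replicate 2 was left out, and the 15 named differences between groups that did not overlap had no reversal in 160 refits, which that choice of genes largely fixes. Locus ratios stayed near 1 but crossed it: leaving out 1 library gave 0.958 to 1.17 (Pol II), 0.855 to 1.07 (H3K4me3) and 1.003 to 1.05 (H3K9Ac), the better-ranked 50% gave 1.02 for H3K4me3 and 0.944 for H3K9Ac, and for H3K9Ac a flank of 10 kb gave 0.981 and the number of summits 0.963. Region losses depended most on the settings. Lists of equal length gave 7 lost Pol II and 0 lost H3K4me3 regions, an extension of 250 bp gave 2 for H3K4me3 and 10 for H3K9Ac, and 1000 bp gave 0 and 2. Leaving out 1 library, chosen after seeing the data and asking for fewer libraries by construction, gave 3 to 7 (Pol II), 1 to 5 (H3K4me3) and 6 to 11 (H3K9Ac). Presence in both parental libraries fell to 5 of 9 genes for SAP30 with the best 10000 peaks, to 2 for SIN3A and 5 for SIN3B with the better-ranked 50%, and to 5 for SIN3B with the best 10000 peaks. With only the outer 5′ ends of the annotated genes it was 3 for SIN3A, 5 for SIN3B and 5 for H3K4me3. At TGFBR1, SMAD3 and SMAD4 these ends lie upstream of the start sites, as given above. The Pol II promoters lost, also an alternative set chosen after seeing the data, numbered 2 (SMAD7 and TGFBI) with lists of equal length, 0 with the better-ranked 50%, and 1 to 2 with 1 library left out, the 2 arising without SAP30-KO1 replicate 1.

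Replicate numbers did not pair the libraries: the deviations of same-numbered libraries correlated at 0.00753 (Pol II), −0.0189 (H3K4me3) and −0.0136 (H3K9Ac). With the replicate block 0 of the 9 genes (7 tested with Pol II) were called for each target. Genes called in all numbered 0, 80 and 1 against 0, 96 and 1 without it. The block left the locus ratios at 1.06, 0.97 and 1.03. Across settings the count of H3K4me3 calls over all genes ranged from 19 to 261, Pol II reached 227 when SAP30-KO1 replicate 1 was left out, and H3K9Ac ranged from 0 to 13. Of the other pathway genes 4 were called with H3K4me3 without SAP30-KO1 replicate 2, 1 with H3K4me3 when absent peaks counted as 100%, and 1 with Pol II without SAP30-KO1 replicate 1. Depth limits what can be said of weak peaks, since a peak under a score of 1.30 is absent from the lists.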
